A study of Mus musculus with 6 samples.

Results

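The 9 genes described here encode factors through which cells of the osteoblast lineage act on osteoclasts, the cells that resorb bone: Tnfsf11, Tnfrsf11b, Csf1, Il6, Il11, Lif, Wnt5a, Wnt16 and Lgals9. They were taken as a fixed list of gene symbols, chosen with earlier results of these data known. Every non-control probe whose RefSeq transcript belongs to one of them was read. This gave 12 of the 39429 different probes on the array, for 9 of the 20659 genes named on it, with 3 probes for Csf1, 2 for Wnt16 and 1 for each other gene. The RNA was that of MC3T3-E1, a line of mouse pre-osteoblasts, cultured on metal scaffolds for 3 days. In the De-HA group (n = 3) the cells grew on a dealloyed scaffold with a coating of bioactive materials. In the FeMnSi group (n = 3) they grew on the scaffold in its original state, an alloy of iron, manganese and silicon by its name. Both groups held the cell line alone, with no osteoclast precursors named in the labels, and every sample has 1 Agilent array, read in a single colour. Separate cultures for the replicates are not stated in the labels, so the p-values reflect the variation among these 6 samples, part of which could be technical.

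RANKL, the product of Tnfsf11, is the cytokine that drives myeloid precursors to become osteoclasts by binding RANK, the product of Tnfrsf11a. Osteoprotegerin, encoded by Tnfrsf11b, is a soluble decoy that binds RANKL and blocks this step, and M-CSF, encoded by Csf1, keeps the precursors alive and dividing through the receptor encoded by Csf1r. Interleukin-6, interleukin-11 and leukemia inhibitory factor signal through the shared receptor chain gp130 and can raise RANKL in osteoblasts. Wnt5a enhances the response of precursors to RANKL through Ror receptors, Wnt16 from osteoblasts restrains osteoclast formation, and galectin-9, the product of Lgals9, is a carbohydrate-binding protein reported to act on osteoclast formation.

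All 14 osteoblast markers on a fixed list, which holds Runx2, Sp7, Alpl and Col1a1, had a tested probe. Of the 17 osteoclast markers, 12 had one. Ctsk, Ocstamp, Itgb3, Nfatc1, Oscar, Tnfrsf11a, Csf1r, Clcn7, Tcirg1, Ostm1 and Siglec15 were well above background on all 6 arrays, and Car2 on 4. Acp5, Dcstamp and Mmp9 were well above background on none of the 6 arrays, Atp6v0d2 on 1 and Calcr on 2. Between arrays, probes well above background made up 63.5% to 74.4% in De-HA and 69.2% to 73.2% in FeMnSi. A probe was tested when 3 or more of the 6 arrays had it well above background, and 28175 probes entered 1 limma fit of De-HA against FeMnSi with Benjamini-Hochberg adjustment over all of them. Signals are given as log2 of the processed signal relative to the 75th percentile of the same array, so that 0 is the level of that percentile; a level of 1 probe is not set against that of another. De-HA 1, 2 and 3 and FeMnSi 1 had 1 scan time in the file headers (scan 1) and FeMnSi 2 and 3 another. The value within scan 1, the De-HA mean minus FeMnSi 1, is given beside the pooled one for each factor and each listed gene named as past the threshold. A fit blocked by scan has this same difference as its value, which therefore rests on 1 FeMnSi array. A fit without FeMnSi 1 sets De-HA of scan 1 against FeMnSi of the other scan, so scan and scaffold cannot be told apart. That fit called 25.5% of all probes tested. Fold changes are to be read against that of the median gene, which among 15535 genes was 0.10 on the log2 scale, and 0.00 after quantile normalization. Counts of genes called in a list are to be read against the shares over these genes, 4.47% higher and 3.18% lower in De-HA.

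Of the 12 probes, 10 from 8 genes could be tested, each of them well above background on all 6 arrays, and 1 of the 10 passed an adjusted p of 0.05. Over all probes tested, limma called 6.91% (4.34% higher and 2.57% lower in De-HA). The call was a rise of Csf1 through its brightest probe; in RNA from whole cultures, fewer cells of a type and less RNA per cell cannot be told apart. At an unadjusted p under 0.05, 3 of the 10 passed, the others being Wnt5a and Tnfrsf11b, a share like the 31.8% of all probes tested. In 4 probes (Csf1 A_51_P195506, Wnt5a, Wnt16 A_66_P113556 and Lgals9) all De-HA arrays lay above all FeMnSi arrays, and in 2 (Tnfrsf11b and Csf1 A_55_P2017914) all lay below. Over all probes tested, 25.6% and 11.8% were separated in these ways.

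**Figure D1:**
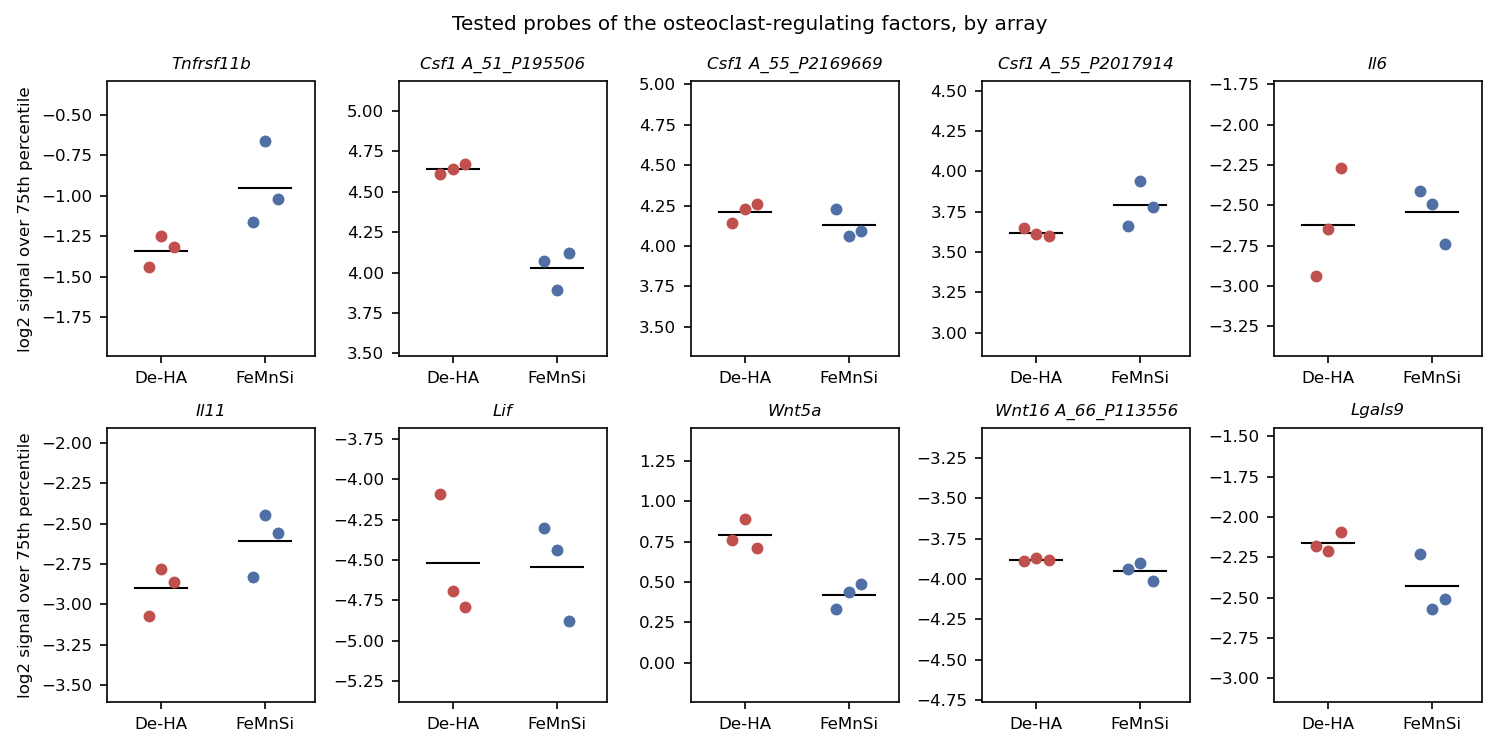
Log2 signal relative to the 75th percentile of the array (vertical axes, each spanning the same range) for the 10 tested probes, with De-HA arrays in red, FeMnSi arrays in blue and group means as bars. Csf1 A_51_P195506 has De-HA arrays from 4.61 to 4.67 and FeMnSi arrays from 3.89 to 4.12, while the groups overlap for Il6 and Lif.

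Tnfsf11, on chromosome 14 (GRCm38.p6, 78277446 to 78308043), encodes RANKL and was not measurable on either scaffold. Its processed signal was 5.44, 2.57 and 2.54 for the De-HA arrays 1 to 3, against 3.36, 10.4 and 3.3 for the FeMnSi arrays 1 to 3. The scanner software replaces the lowest signals by surrogates, so their order carries little. The lowest signal that counted as well above background was 23.9, 12 and 11.7 for De-HA, against 14.5, 12.3 and 14.5 for FeMnSi. All 6 signals thus lay under this floor, the groups overlapped, and neither a fold change nor a ratio of RANKL to osteoprotegerin can be given. A signal below background bounds the transcript's level at this probe and does not show that it is absent. The promoter window of Tnfsf11, the 300 bases from 250 before to 50 after the start at chr14:78307994-78308293 on the minus strand (RefSeq, GRCm38.p6), is shown because the gene is the central ligand of the pathway. Capitals mark a match to TATAAA on the opposite strand, the only match among the 4 motifs searched on both strands, namely TATAAA (the TATA box), TGANTCA (AP-1 factors), TTCNNNGAA (STAT factors) and AGGTCA (nuclear receptors). TATAAA occurred in 13.6% of the 32851 windows of that length.
Tnfsf11: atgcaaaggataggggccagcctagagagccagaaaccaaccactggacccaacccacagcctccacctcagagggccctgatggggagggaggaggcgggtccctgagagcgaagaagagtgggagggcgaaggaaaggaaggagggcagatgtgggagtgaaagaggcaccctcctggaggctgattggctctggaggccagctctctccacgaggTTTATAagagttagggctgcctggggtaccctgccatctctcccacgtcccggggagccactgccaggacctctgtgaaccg

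**Figure D2:**
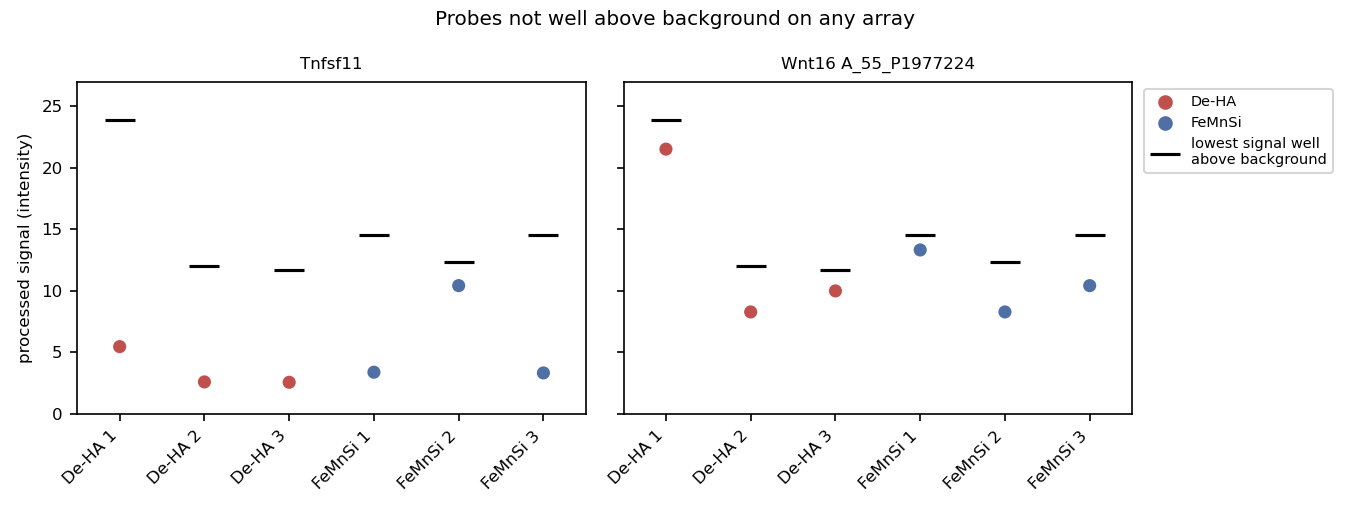
Processed signal in intensity units (vertical axis, from 0) on each array for the 2 probes that were well above background on none of the 6 arrays, with De-HA arrays in red and FeMnSi arrays in blue. Black bars give the lowest signal well above background on the same array, from 11.7 to 23.9, and every point lies below its bar.

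Tnfrsf11b, on chromosome 15 (54250619 to 54278484), encodes osteoprotegerin, the inhibitor of RANKL. Its processed signal was 230, 274 and 233 on the De-HA arrays and 293, 456 and 348 on the FeMnSi arrays. Relative to the 75th percentile this was -1.44, -1.25 and -1.32 in De-HA, and -1.16, -0.66 and -1.02 in FeMnSi. All De-HA arrays lay below all FeMnSi arrays, by a gap that was small beside the spread of the FeMnSi arrays. The mean was -1.34 ± 0.095 in De-HA and -0.95 ± 0.259 in FeMnSi (SD, n = 3 each). The log2 fold change was -0.39 ± 0.15 SE (95% interval -0.74 to -0.05) and did not pass in limma (adjusted p = 0.126). Within scan 1 the difference was -0.18, which is the smaller value, and for the arrays of the other scan, both FeMnSi, scan and scaffold cannot be told apart. Without FeMnSi 1 it was -0.50 and passed (adjusted p = 0.0463), and without FeMnSi 2, the highest array, it was -0.25 (adjusted p = 0.245).

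Csf1, on chromosome 3 (107741048 to 107760469), encodes M-CSF, the survival factor of osteoclast precursors, and was strongly detected by 3 probes that did not give the same answer. Probe A_51_P195506, named by the array for transcript NM_007778, is printed as 10 spots on each array. Averaged over spots its processed signal was 15200, 16300 and 14900 on the De-HA arrays and 11000, 10700 and 12300 on the FeMnSi arrays. The 10 spots of 1 array varied by a coefficient of variation of 2.07% to 2.81% in De-HA and 1.33% to 4.48% in FeMnSi. The lowest De-HA spot, at 14576, exceeded the highest FeMnSi spot, at 12521. The normalised level was 4.64 ± 0.0302 in De-HA and 4.03 ± 0.117 in FeMnSi (SD, n = 3 each). This was a rise of 1.53-fold in De-HA (log2 fold change 0.61 ± 0.10 SE, 95% interval 0.38 to 0.85, adjusted p = 0.0214 in limma), with 0.57 within scan 1. Blocked by scan it did not pass (adjusted p = 0.123), nor after quantile normalization (0.39, adjusted p = 0.0588) or in the authors' series matrix (0.38, adjusted p = 0.0622). Of the 6 fits that leave out 1 array only the one without FeMnSi 1 passed (adjusted p = 0.0183), where scan and scaffold cannot be told apart. The other 5 gave 0.0617 to 0.102, with fold changes from 0.55 to 0.66.

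The other Csf1 probes are both named for transcript NM_001113530. Probe A_55_P2169669 read 4.14, 4.23 and 4.26 in De-HA and 4.23, 4.06 and 4.09 in FeMnSi, with overlapping groups and a log2 fold change of 0.08 ± 0.10 SE (95% interval -0.15 to 0.31, -0.02 within scan 1). Probe A_55_P2017914 read 3.65, 3.61 and 3.60 in De-HA and 3.66, 3.94 and 3.78 in FeMnSi. Here every De-HA array was the lower one, by a log2 fold change of -0.17 ± 0.10 SE (95% interval -0.42 to 0.07, -0.04 within scan 1). All 3 probes were bright, so none of these differences rests on signals near background. Whether the probes of 1 gene respond unequally was tested for every gene with at least 2 tested probes by limma's diffSplice, a test added after the values had been seen. Csf1 was among the 114 of 3936 such genes (2.90%) whose probes differed in their response (F test, adjusted p = 0.00904). The log2 fold change of A_51_P195506 minus that of the other Csf1 probes was 0.66 (adjusted p = 0.00589 in diffSplice). For A_55_P2017914 this difference was -0.52 (adjusted p = 0.0195). Blocked by scan these differences were 0.60 (adjusted p = 0.0751) for A_51_P195506 and -0.32 (adjusted p = 0.398) for A_55_P2017914. Left-out arrays gave 0.57 to 0.72 for A_51_P195506 and -0.62 to -0.40 for A_55_P2017914; without De-HA 2 or De-HA 3 the first did not pass (adjusted p = 0.0742 and 0.0711), and the second passed only without FeMnSi 1. After quantile normalization the first was 0.62 (adjusted p = 0.0147) and the second -0.47 (adjusted p = 0.0442). A rise is therefore reported by 1 of 3 Csf1 probes, for the RNA which that probe detects. These data do not give the position of any probe in the transcript, so a rise of total Csf1 RNA cannot be read from them.

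**Figure D3:**
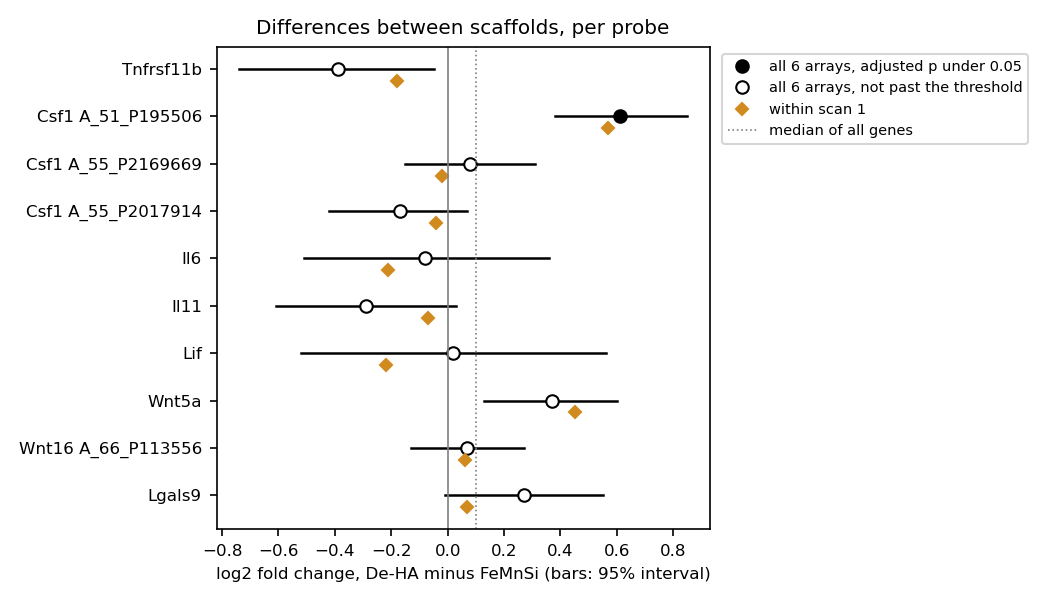
Log2 fold change of De-HA against FeMnSi (horizontal axis) for each tested probe, with 95% intervals as bars, the value within scan 1 as diamonds and the median of all genes, 0.10, as a dotted line. Only the Csf1 probe A_51_P195506, at 0.61, is filled as past the threshold, and the diamond of Tnfrsf11b lies nearer 0 (-0.18) than its pooled value (-0.39).

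By the root mean square distance between log2 profiles over the 6 arrays, each centred on its mean, the genes nearest to Csf1 A_51_P195506 were Kmt2d (0.0344), Rps6ka5 (0.0378) and Zfp704 (0.0378). Kmt2d encodes a histone H3 methyltransferase and Rps6ka5 the kinase MSK1. Their log2 fold changes were 0.65, 0.66 and 0.56; since the genes were picked for their likeness to a probe already called, these are a description.

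None of the ligands that signal through gp130 passed the test. Il6, on chromosome 5 (30013114 to 30019975), had processed signals of 81.2, 104 and 121 in De-HA and 123, 128 and 106 in FeMnSi. The groups overlapped, with a log2 fold change of -0.08 ± 0.18 SE (95% interval -0.51 to 0.36, -0.21 within scan 1). Il11, on chromosome 7 (4772373 to 4782907), had 74.4, 95 and 80.4 in De-HA and 91.8, 132 and 120 in FeMnSi. De-HA 2 lay above FeMnSi 1, and the log2 fold change of Il11 was -0.29 ± 0.14 SE (95% interval -0.61 to 0.03, adjusted p = 0.189 in limma, -0.07 within scan 1). Lif, on chromosome 11 (4257568 to 4272514), was dim, at 36.6, 25.2 and 21.1 in De-HA and 33.1, 33.1 and 23.9 in FeMnSi. Its log2 fold change was 0.02 ± 0.23 SE, with a 95% interval of -0.52 to 0.56 that leaves room for a change of over 1.4-fold either way, -0.22 within scan 1 and -0.17 after quantile normalization. Of these 3 intervals only that of Il11 reaches below -0.6 on the log2 scale.

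The promoters of these 3 ligands are shown because each holds a match to TGANTCA, the site of AP-1 transcription factors, which 7.81% of all windows of that length contain. They are the windows chr5:30012864-30013163 on the plus strand for Il6, chr7:4778092-4778391 on the minus strand for Il11 and chr11:4257318-4257617 on the plus strand for Lif, from RefSeq on GRCm38.p6. A second start of Il11 has a window without it. Capitals mark matches, which are letters alone and say nothing of binding; in Il11 a match to AGGTCA on the opposite strand, near the 5′ end, is also in capitals and occurs in 16.3% of windows.
Il6: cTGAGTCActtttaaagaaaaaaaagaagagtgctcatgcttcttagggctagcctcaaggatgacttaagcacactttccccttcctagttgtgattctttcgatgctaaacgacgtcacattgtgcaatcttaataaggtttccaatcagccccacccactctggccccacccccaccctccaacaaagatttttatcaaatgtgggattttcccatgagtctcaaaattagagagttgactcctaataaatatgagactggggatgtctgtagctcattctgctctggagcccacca
Il11: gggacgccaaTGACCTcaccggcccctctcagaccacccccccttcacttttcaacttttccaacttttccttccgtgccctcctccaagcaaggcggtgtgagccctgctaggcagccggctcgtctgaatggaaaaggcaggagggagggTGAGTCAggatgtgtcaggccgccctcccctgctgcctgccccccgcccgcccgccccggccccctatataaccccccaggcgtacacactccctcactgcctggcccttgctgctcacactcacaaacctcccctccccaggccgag
Lif: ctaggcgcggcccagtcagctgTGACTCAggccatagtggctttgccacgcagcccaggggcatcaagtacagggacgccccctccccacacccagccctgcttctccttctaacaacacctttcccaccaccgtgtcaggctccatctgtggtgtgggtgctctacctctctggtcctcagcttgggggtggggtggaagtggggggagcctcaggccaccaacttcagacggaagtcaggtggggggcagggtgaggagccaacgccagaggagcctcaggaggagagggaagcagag
The windows of Csf1 and Lgals9 hold none of the 4 motifs and that of Wnt16 holds AGGTCA on the opposite strand. No window was at hand for Tnfrsf11b and Wnt5a.

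A list of gp130 ligands, receptors and signal carriers holds 24 genes, Il6, Il11 and Lif among them. All 24 could be tested, and 2 rose and none fell. At an unadjusted p under 0.05, 8 were higher and 1 lower, where 31.9% of all genes passed (21.7% higher and 10.2% lower in De-HA). The median log2 fold change of the list was 0.19 (0.09 after quantile normalization and 0.00 when blocked by scan), against 0.10 for all genes tested, of which limma called 7.65% (4.47% higher and 3.18% lower in De-HA). Socs3, the feedback inhibitor that gp130 signalling induces through STAT3, read 4.50, 4.54 and 4.58 in De-HA and 3.90, 3.55 and 3.55 in FeMnSi. The groups lay apart, and Socs3 rose by 0.87 ± 0.12 SE on the log2 scale (adjusted p = 0.0163 in limma, 0.64 within scan 1). Cish, a related inhibitor of cytokine receptors that signal through STAT5, rose by 0.48 ± 0.09 SE (adjusted p = 0.0354, 0.57 within scan 1). Neither passed when blocked by scan (adjusted p = 0.0784 and 0.0942), and with 1 array left out each passed in 1 of 6 fits. The shared receptor chain gene Il6st gave -0.04 ± 0.08 SE (95% interval -0.24 to 0.16), Il6ra 0.05 ± 0.13 SE and the receptor gene Lifr 0.40 ± 0.09 SE (adjusted p = 0.0529), for which its dimmer probes read 0.71 and 0.83. Stat3 gave 0.25 ± 0.10 SE (adjusted p = 0.154, 0.10 within scan 1).

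Wnt5a, on chromosome 14 (28504543 to 28527448), encodes a ligand that acts on osteoclast precursors through Ror2. Its processed signal was 1050, 1210 and 954 in De-HA and 823, 973 and 994 in FeMnSi. After scaling, the level was 0.79 ± 0.0936 in De-HA and 0.42 ± 0.0813 in FeMnSi (SD, n = 3 each), and all De-HA arrays, from 0.71 to 0.89, lay above all FeMnSi arrays, from 0.33 to 0.49. The unscaled signals overlapped, so that this separation comes with the scaling. The log2 fold change of 0.37 ± 0.10 SE (95% interval 0.13 to 0.60) missed the threshold (adjusted p = 0.0695 in limma) and was 0.45 within scan 1. It passed with an intensity trend (adjusted p = 0.0368) and after normexp background correction (0.35, adjusted p = 0.0241), and ranged from 0.28 to 0.45 over the 18 alternative settings. Ror2, one of its receptor genes, gave 0.17 ± 0.09 SE.

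Wnt16, on chromosome 6 (22288178 to 22298522), has 2 probes named for the same transcript, NM_053116. Probe A_66_P113556 was well above background on every array, at 42.1, 44.6 and 39.7 in De-HA and 42.7, 48.2 and 43.9 in FeMnSi. Relative to the 75th percentile the De-HA arrays lay between -3.89 and -3.87 and the FeMnSi arrays between -4.01 and -3.90, which is apart by a hair. The log2 fold change was 0.07 ± 0.09 SE (95% interval -0.13 to 0.27), below the median of all genes, 0.06 within scan 1 and -0.07 after quantile normalization. Probe A_55_P1977224 was well above background on none of the 6 arrays, with 21.5, 8.26 and 9.97 in De-HA and 13.3, 8.26 and 10.4 in FeMnSi, so detection of Wnt16 rests on 1 of its 2 probes. Among 24 tested genes of the receptors and effectors of Wnt5a and Wnt16, 2 rose and none fell, with a median of 0.26 (0.15 after quantile normalization). At an unadjusted p under 0.05, 10 were higher and 2 lower, against 21.7% and 10.2% of all genes. The 2 calls were Prickle1, of the planar polarity branch (0.80 ± 0.10 SE, adjusted p = 0.0116 in limma, 0.74 within scan 1), and the receptor gene Fzd9 (0.79 ± 0.14 SE, adjusted p = 0.0264, 0.61 within scan 1). Blocked by scan neither passed (adjusted p = 0.0770 and 0.163). Of 13 tested Wnt ligand genes, Wnt10b, a ligand that promotes bone formation, was the one that passed, with a rise of 0.63 ± 0.12 SE (adjusted p = 0.0319, 0.48 within scan 1, adjusted p = 0.188 when blocked by scan).

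Lgals9, on chromosome 11 (78962979 to 78984924), had processed signals of 138, 141 and 137 in De-HA and 140, 121 and 124 in FeMnSi. After scaling the De-HA arrays lay between -2.21 and -2.09 and the FeMnSi arrays between -2.57 and -2.23. The lowest De-HA and the highest FeMnSi array were nearly level. The log2 fold change of 0.27 ± 0.12 SE (95% interval -0.01 to 0.55) did not pass (adjusted p = 0.163 in limma), was 0.07 within scan 1 and passed without FeMnSi 1 (0.38, adjusted p = 0.0374). In that last fit 25.5% of all probes passed, and scan and scaffold cannot be told apart. Of 12 tested galectin genes and galectin-9 receptor genes, Lgals2 alone passed. It rose 2.39-fold, at -2.15, -1.97 and -2.08 in De-HA and -3.26, -3.19 and -3.53 in FeMnSi (1.26 ± 0.12 SE, adjusted p = 0.00557, 1.19 within scan 1). Lgals2 also passed in all 6 fits that leave out 1 array, but not when blocked by scan (adjusted p = 0.0531). The galectin-9 receptor genes Havcr2 and Cd44 gave 0.34 ± 0.18 SE and 0.12 ± 0.09 SE, and the 3 dimmer probes of Cd44 ranged from -0.49 to 0.05. Havcr2 was dim, with processed signals from 17 to 24.3, and well above background on 4 of the 6 arrays.

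**Figure D4:**
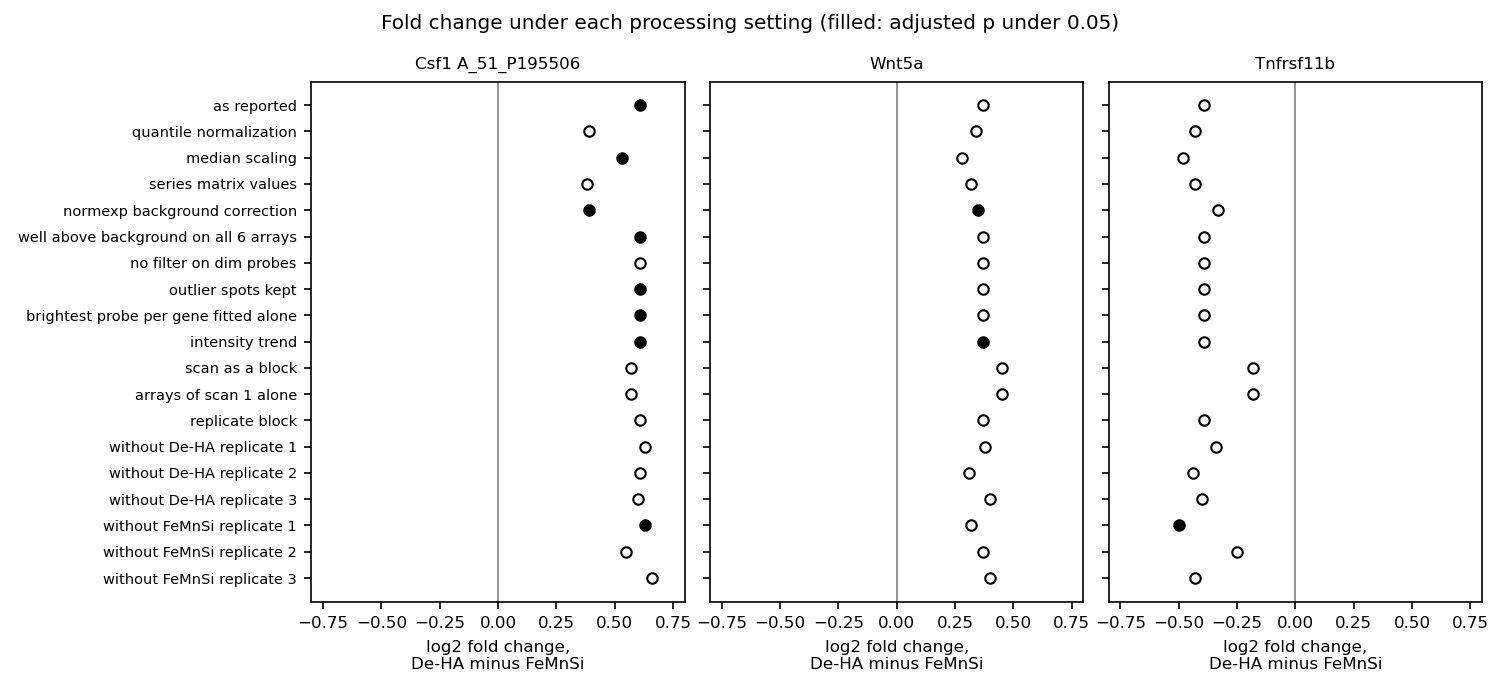
Log2 fold change of De-HA against FeMnSi (horizontal axes) for Csf1 A_51_P195506, Wnt5a and Tnfrsf11b as reported and under 18 alternative settings, filled where the adjusted p is under 0.05. The direction is the same in every setting shown; the threshold was passed in 7 of the 18 settings for Csf1 A_51_P195506, 2 for Wnt5a and 1 for Tnfrsf11b.

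The 9 factors belong to a wider list of 46 genes of osteoblast-made osteoclast regulators, of which 33 had a tested probe. By the brightest probe of each gene, 4 rose and 1 fell, and the median log2 fold change was 0.07, against 0.10 for all genes. The fall was that of Il33, an alarmin cytokine reported to restrain osteoclast formation in mouse cells, by 3.30 ± 0.19 SE on the log2 scale (adjusted p = 0.00162 in limma, -3.14 within scan 1, adjusted p = 0.0211 when blocked by scan). On De-HA 1 its signal was not well above background, so this size depends on a signal in the background range. Among the rises, that of Csf1 was not shared by its other probes, which read -0.17 and 0.08. The remaining rises were those of Lgr4, Ccl2 and Cxcl12. Lgr4, a receptor reported to bind RANKL in the mouse, gave 0.82 ± 0.13 SE (adjusted p = 0.0191, 0.65 within scan 1). Ccl2 and Cxcl12 are chemokine genes whose products attract osteoclast precursors. Ccl2 read -1.22, -1.31 and -0.80 in De-HA and -1.92, -1.89 and -1.89 in FeMnSi (0.79 ± 0.14 SE, 0.81 within scan 1, adjusted p = 0.0295). Transcripts of Cxcl12 rose by 0.74 ± 0.16 SE (adjusted p = 0.0441, 0.46 within scan 1), read by the brighter of its probes, against 0.11 by the dimmer. Blocked by scan Lgr4, Ccl2 and Cxcl12 did not pass (adjusted p = 0.118, 0.145 and 0.255). Ptgs2 encodes the inducible cyclooxygenase, an early enzyme in the synthesis of the RANKL-raising prostaglandin E2. Ptgs2 read -0.57, -0.84 and 0.22 in De-HA and 0.48, 1.09 and 0.65 in FeMnSi. The groups did not overlap, but its log2 fold change of -1.13 ± 0.29 SE did not pass (adjusted p = 0.0625) and was -0.87 within scan 1. Il34, a second ligand of the M-CSF receptor, gave -0.36 ± 0.14 SE (adjusted p = 0.127), and Sost, Tnf and Il1a, among others, were well above background on none of the 6 arrays.

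**Figure D5:**
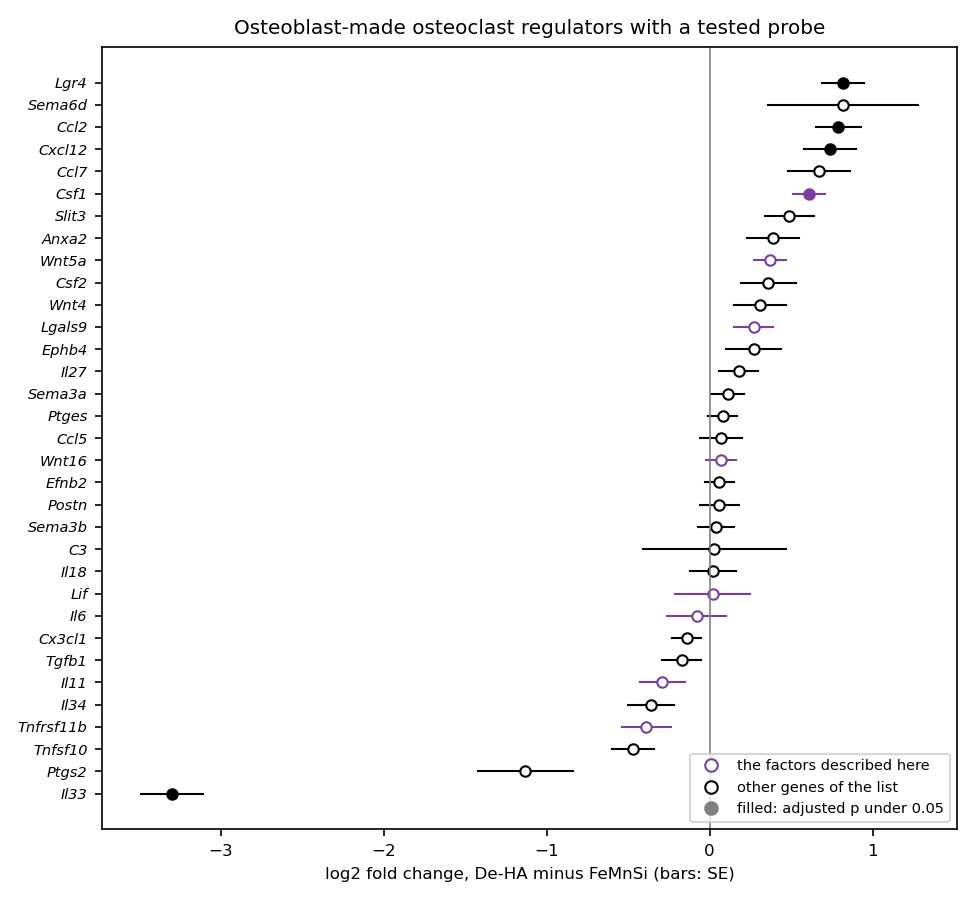
Log2 fold change of De-HA against FeMnSi with its SE (horizontal axis) for the 33 osteoblast-made osteoclast regulators with a tested probe, with the factors described here in purple and genes past an adjusted p of 0.05 filled. Il33 lies far to the left at -3.30, and the filled genes to the right are Lgr4, Ccl2, Cxcl12 and Csf1, each shown by its brightest probe only.

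Of 18 genes of receptors through which hormones and cytokines act on Tnfsf11, 15 were tested, and 3 rose and none fell. Over all genes tested, 4.47% were called higher and 3.18% lower. With 1 array left out, 0 to 3 of the list passed as higher. The median of the list was 0.20 (0.06 after quantile normalization), against 0.10 for all genes. Vdr, the vitamin D receptor gene, read 2.14, 1.30 and 1.61 in De-HA and 0.18, 0.00 and 0.38 in FeMnSi. All De-HA arrays were far above, and the rise was 2.82-fold (SE 0.22 and 95% interval 0.98 to 2.02 on the log2 scale, where the value within scan 1 was 1.51, adjusted p = 0.0173 in limma). The Wnt co-receptor genes Lrp6 and Lrp5 rose too, Lrp6 by 0.56 ± 0.09 SE (adjusted p = 0.0240, 0.49 within scan 1, 0.33 by its dimmer probe) and Lrp5 by 0.42 ± 0.09 SE (adjusted p = 0.0444, 0.37 within scan 1). None of the 3 passed when blocked by scan (adjusted p = 0.106, 0.138 and 0.209), and Lrp6 did not after quantile normalization (0.40, adjusted p = 0.0528). Pth1r, the parathyroid hormone receptor gene, gave 0.44 ± 0.14 SE (adjusted p = 0.0918), and Ptger2 and Ptger4, prostaglandin E2 receptor genes, were well above background on none of the 6 arrays. On the same arrays the signal of Tnfsf11, a vitamin D target gene of osteoblasts, lay in the background range. A link between Vdr and Tnfsf11 was not tested.

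RANKL and M-CSF are made as membrane proteins and shed by proteases. Of 11 tested genes of these proteases and their inhibitors, Timp1, a metalloproteinase inhibitor gene, fell by 0.49 ± 0.10 SE on the log2 scale (adjusted p = 0.0389 in limma, -0.45 within scan 1, adjusted p = 0.188 when blocked by scan), and none rose. Adam10 and Mmp14, which can release RANKL from mouse cells, gave 0.25 ± 0.12 SE and 0.00 ± 0.09 SE. In the TNF ligand and receptor families, to which RANKL and osteoprotegerin belong, 1 of 28 tested genes passed. This was Tnfrsf19, a receptor gene of mesenchymal cells, at 0.64 ± 0.09 SE (adjusted p = 0.0173, 0.64 within scan 1), which a dimmer probe read as 0.20, and not past the threshold when blocked by scan (adjusted p = 0.0939).

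The receptors on the osteoclast side were read in the same arrays. Tnfrsf11a, the gene of RANK, gave -0.16 ± 0.12 SE (95% interval -0.44 to 0.13, -0.36 within scan 1). Csf1r gave 0.51 ± 0.17 SE (adjusted p = 0.105 in limma, 0.18 within scan 1, 0.22 by its dimmer probe), and passed without FeMnSi 1 (adjusted p = 0.0245). In that last fit scan and scaffold cannot be told apart. None of the 12 tested osteoclast markers passed in limma, and the median was -0.01 (-0.09 after quantile normalization). At an unadjusted p under 0.05, 1 was higher and none lower, against 21.7% and 10.2% of all genes. Ctsk, which encodes cathepsin K, gave -0.17 ± 0.10 SE (-0.28 within scan 1). It was lower past the threshold after quantile normalization (-0.43, adjusted p = 0.0336), in the series matrix (-0.42, adjusted p = 0.0351) and after normexp (-0.41, adjusted p = 0.0112), but not with median scaling (-0.26, adjusted p = 0.195). Of 10 tested macrophage markers 2 rose and 1 fell, against 4.47% and 3.18% of all genes. These were Adgre1 (0.77 ± 0.12 SE, adjusted p = 0.0203), Mertk (0.56 ± 0.11 SE, adjusted p = 0.0338) and Trem2 (-1.70 ± 0.09 SE, adjusted p = 0.00162), with 0.85, 0.49 and -1.81 within scan 1. Trem2 passed when blocked by scan (adjusted p = 0.0170), whereas Adgre1 and Mertk did not (adjusted p = 0.0899 and 0.183). In percent of the signal at the 75th percentile, the brightest probes of the 17 osteoclast markers summed to 3710 to 3990 in De-HA and 4060 to 4550 in FeMnSi. Ctsk alone made up 2880 to 3170 of this in De-HA and 3260 to 3690 in FeMnSi, and the other 16 markers 822 to 863 in De-HA and 805 to 862 in FeMnSi. The sums for the macrophage markers were 469 to 510 in De-HA and 373 to 494 in FeMnSi, and Tyrobp, Mrc1 and Cx3cr1 were well above background on none of the 6 arrays; the part of such cells in the values of Csf1 and the other factors was not tested. Of 14 osteoblast markers 6 rose and 1 fell, against 4.47% of all genes called higher and 3.18% lower. With 1 array left out, 0 to 8 of them passed as higher. Their median was 0.48 (0.38 after quantile normalization and 0.19 after normexp), against 0.10 for all genes. Alpl, the alkaline phosphatase gene, was higher by 0.85 ± 0.15 SE (adjusted p = 0.0265, 0.64 within scan 1). Spp1, the osteopontin gene, changed by -1.09 ± 0.12 SE (adjusted p = 0.00834, -1.04 within scan 1). Ibsp and Bmp4 rose by 0.79 and 0.64 (adjusted p = 0.0164 and 0.0244, 0.69 and 0.67 within scan 1), and a dimmer Ibsp probe read 0.17; when blocked by scan none of these 4 passed, at 0.168, 0.0634, 0.106 and 0.111. Of 7 tested osteocyte markers 2 rose, Phex (1.66, 1.83 within scan 1) and Npnt (2.32, 1.97 within scan 1), and Dmp1 fell (-0.80, -0.64 within scan 1). In the T and B cell, endothelial and adipocyte lists 1 gene each passed. Cd3e (0.61, 0.74 within scan 1) and Kdr (0.41, 0.38 within scan 1) were higher, and Fabp4 (-1.99, -1.97 within scan 1) was lower. For each of Adgre1, Bmp4 and Kdr, only 1 of its 2 probes could be tested. Blocked by scan, Phex (adjusted p = 0.0170), Npnt (0.0176) and Fabp4 (0.0340) passed, and Dmp1 (0.148), Cd3e (0.0828) and Kdr (0.188) did not. Il33, Lgals2, Trem2, Spp1, Phex, Npnt and Fabp4 passed whichever 1 array was left out, while every other gene of these lists named as past the threshold failed in at least 2 of the 6 such fits.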

How the data were processed

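Per the labels, total RNA of MC3T3-E1 cells on De-HA or FeMnSi scaffold (n = 3 each) was linearly amplified and carried Cy3 on the arrays. The submitters' processing notes name Agilent Feature Extraction, version 11.0.1.1. The deposited processed signals are a linear intensity for each spot; per the file headers the software subtracted background, detrended each array by itself and applied no scaling across arrays. The deposited series matrix holds log2 values of unstated origin, with a median of 5.77 in every column and r of 0.997 to 1.00 against each array's own log2 scanner signal; scale and direction match, its centring is unstated, and it served as an alternative.

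Each array had 44397 spots, 1377 of them controls. The 75th percentile of an array's non-control spots was subtracted on the log2 scale, outlier-marked spots were dropped and each probe's spots averaged. The filter on background (3 arrays or more) kept 28380 probes, of which 205 had every spot marked on some array and were left out. The array percentile signals ran from 582 to 720 and no spot was saturated. Names came from RefSeq accessions (GRCm38.p6); 27234 of 28684 probes with an accession matched. The fit used lmFit and eBayes without trend in limma 3.58.1 (R 4.3.3, with version 1.17.8 of the data.table package). On simulated data it missed many of the added changes, the smaller ones above all, so a probe not called may still differ. Figures used matplotlib 3.10.9 in Python 3.11.15. A listed gene is counted by its probe with the highest mean over all arrays.

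Every probe of the 9 factors is named; in each list, up to 4 other passing genes are named, by smallest p-value, or 2 where none passed, and the 3 genes with the nearest profile for each factor past it. Acp5, Adam10, Aif1, Atp6v0d2, C1qa, C1qb, Calcr, Car2, Cd14, Cd44, Clcn7, Col1a1, Cx3cr1, Dcstamp, Fcgr1, Havcr2, Il1a, Il34, Il6ra, Il6st, Itgam, Itgb3, Lifr, Lyz2, Mmp14, Mmp9, Mrc1, Nfatc1, Ocstamp, Oscar, Ostm1, Pth1r, Ptger2, Ptger4, Ptgs2, Ptprc, Ror2, Runx2, Siglec15, Sost, Sp7, Stat3, Tcirg1, Tnf, Tnfrsf11a and Tyrobp fall outside this rule. They were picked with their values in view, as was the test of the Csf1 probes against each other. The factors, lists and motifs were chosen with earlier results of these data known. The planned change in Tnfsf11 relative to Tnfrsf11b was not computed, since no Tnfsf11 probe could be tested. Normexp used the median spot signal with an offset of 50. The alternatives were 4 other scalings or sources of values, 2 other filters, outlier spots kept, 1 probe per gene, an intensity trend, the scan as a block or scan 1 alone, the replicate number as a block, and each array left out.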

Additional observations from a re-analysis of the deposited data

How the results depend on the processing

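Of the 10 tested probes, 1 passed the threshold as reported, and the count was 0 after quantile normalization, in the series matrix, with no filter on dim probes, with the scan as a block, on scan 1 alone and with a replicate block, and 2 after normexp and with an intensity trend. It ran from 0 to 3 when 1 array was left out. Over all probes 1948 passed as reported, 298 with no filter, 3294 with an intensity trend, 158 with the scan as a block, 6 on scan 1 alone, 469 with the replicate block, and 137 (without FeMnSi 3) to 7174 (without FeMnSi 1) with 1 array left out; 296, 297 and 139 passed without De-HA 1, 2 and 3 and 343 without FeMnSi 2. Of the calls 62.8% were higher as reported, 47.5% by normexp, 42.5% by the series matrix, 39.4% by median scaling and 44.4% by quantile normalization. Same-numbered arrays did not deviate together (r = 0.0271, -0.0828 and 0.141), so the replicate numbers were not taken as pairs; with the replicate block Csf1 A_51_P195506 gave an adjusted p of 0.0575.

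Probes near 0 changed sign, none of them past the threshold. In the order quantile normalization, median scaling, series matrix and normexp, Csf1 A_55_P2169669 gave -0.13, -0.01, -0.13 and -0.11, Lif -0.17, -0.07, -0.17 and -0.03, and Wnt16 A_66_P113556 -0.07, -0.02, -0.07 and -0.01. Blocking by scan, or taking scan 1 alone, gave -0.02 for Csf1 A_55_P2169669 and -0.22 for Lif. With 1 array left out, Il6 ran from -0.25 to 0.08 (without De-HA 1) and Lif from -0.20 (without De-HA 1) to 0.15, with -0.15 without FeMnSi 3. The cause of these differences was not tested. The alternatives planned for Tnfsf11 relative to Tnfrsf11b were not run, since Tnfsf11 had no tested probe. The other 6 tested probes kept their direction in every setting. With 3 arrays a group, signals near 25, as for Lif, are close to the lowest signals well above background (11.7 to 23.9), and the number of arrays limits the precision.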
